A study of Saccharomyces cerevisiae with 6 samples.

Results

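The genes described here encode the enzymes that turn ethanol into acetyl-CoA in budding yeast, Saccharomyces cerevisiae. There are 10 of them: the alcohol dehydrogenase genes ADH1 to ADH5, the acetaldehyde dehydrogenase genes ALD4, ALD5 and ALD6, and the acetyl-CoA synthetase genes ACS1 and ACS2. They were chosen by function, with earlier results of these data known. The choice was made from the 5656 genes that have a probe set of their own on an Affymetrix yeast array. Where a gene had several such probe sets, the brightest was read. All 10 passed the filter on dim genes and were among the 4242 genes tested.

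Cells of strain 3238-32, given in the labels as MATa leu2∆1 lys2-801 ura3-52, were precultured for 24 h at 30°C until the sugar was used up. They were washed, diluted 10-fold into 100 ml of YNB medium with 4% ethanol, leucine, histidine and uracil in 250 ml beakers, and left standing at 27°C. After 48 h the film at the air-liquid interface (the biofilm, "floaters") and the settled cells at the bottom (the bottom layer, "sinkers") were collected, and 3 arrays were made of each. Both groups are therefore the same strain under the same culture conditions, with ethanol as the added carbon source for both. A single strain was used, and the labels do not say which array came from which beaker, so each p-value reflects only how these arrays vary, which may be technical variation.

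The deposited values are signal intensities scaled by array, with medians of 128 to 151 and a trimmed mean of 500 on each array. The bottom layer array of replicate 3 stood apart: its 100 brightest probe sets held 23.7% of all signal, against 13.9% to 17.7% on the other 5 arrays. Its ratio of 3' to 5' signal for the actin gene ACT1, a sign of RNA integrity, was 3.84, against 1.54 to 2.04 in the biofilm and 1.80 and 2.36 on the other bottom layer arrays. Signal of the control probe sets for 18S ribosomal RNA was lower on all biofilm arrays than on any bottom layer array. Its mean was 893, 1211 and 1217 in the biofilm, against 4136, 3842 and 5759 in the bottom layer. This signal splits by group, so its part in the results cannot be told apart from the group difference and was not tested. The labelled mating type went against its markers. The 6 genes specific to a cells summed to 84.1 to 119 signal units per biofilm array and 210.2 to 278 per bottom layer array, and of them MFA1 alone, in the bottom layer alone, exceeded background (the brightest control probe set without a spike) on all 3 arrays of a group. The 4 genes specific to alpha cells summed to 5228 to 6357 and 3697 to 5526, and all 4 exceeded background on every array. LEU2 was bright, at 5372 ± 379.75 (SD, n = 3) in the biofilm, against 9133 ± 2435 in the bottom layer. Where its probes lie relative to the leu2∆1 deletion is not known here, so this checks nothing about that allele.

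Yeast makes ethanol from sugar and later uses it as food. Alcohol dehydrogenases interconvert ethanol and acetaldehyde, acetaldehyde dehydrogenases oxidise acetaldehyde to acetate, and acetyl-CoA synthetases join acetate to coenzyme A at the cost of ATP. Each step has isoenzymes in the cytosol and, for the dehydrogenases, in mitochondria, and several of the genes are known to be held down by glucose. Acetyl-CoA then enters the glyoxylate and TCA cycles, lipid synthesis and protein acetylation.

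The isoenzyme genes did not move together. In the biofilm ALD5 and ACS2 were higher, ACS1, ADH1, ADH5 and ALD6 were lower, and ADH2, ADH3, ADH4 and ALD4 did not pass the test (limma over all genes tested, adjusted p below 0.05). The 6 of 10 called compare with 62.5% of all genes tested, the 2 higher with 38.0% and the 4 lower with 24.4%, so the share called is near that of all genes. The median log2 fold change of the 10 genes was -0.42, against 0.17 for all genes tested. When each array was centred on the median of the genes tested, the median of all genes moved to -0.03 and the split of all calls from 1613 higher and 1037 lower to 1310 and 1334. The calls of the 10 genes were the same under that centring. The 4 lower genes came to 2 without biofilm replicate 1 and with the ACT1 ratio as a covariate, both times by loss of ADH1 and ALD6. In 7 of the 10 genes the arrays of the groups did not overlap, against 68.0% of all genes tested. The biofilm lay above in 3 of them (41.3% of all genes) and the bottom layer in 4 (26.7%). In bulk RNA, fewer cells that express a gene and less of its RNA per cell cannot be told apart.

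**Figure D1:**
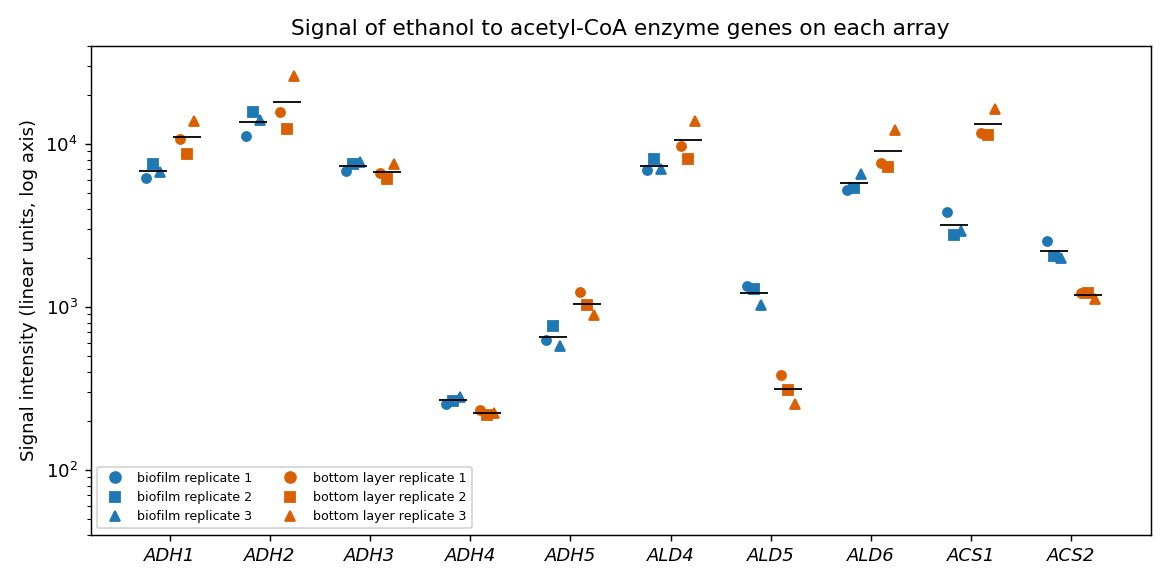
Signal intensity (linear units on a log axis) of each of the 10 genes on the 3 biofilm (blue) and 3 bottom layer (orange) arrays, with marker shapes for replicate numbers and horizontal bars for group means. The groups are clearly apart for ALD5, ACS1 and ACS2, and the bottom layer array of replicate 3 is the highest of all 6 for 5 genes (ADH1, ADH2, ALD4, ALD6 and ACS1).

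The largest change was that of ACS1 in the last step, where the pair of synthetase genes moved in opposite directions. ACS1 encodes the acetyl-CoA synthetase that is repressed by glucose and used on acetate and ethanol. Its signal was 3817, 2777 and 2943 on the biofilm arrays and 11751, 11405 and 16407 on the bottom layer arrays. Every bottom layer array was thus far above every biofilm array. The means were 3179 ± 558 and 13188 ± 2793 (SD, n = 3 each), a 4.11-fold fall in the biofilm (log2 fold change -2.04, SE 0.21, limma adjusted p = 1.47e-05). Among the 4242 genes tested it had rank 138 from the largest fall. Without bottom layer replicate 3 the log2 fold change was -1.87.

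ACS2 encodes the other synthetase, which is not repressed by glucose, is essential for growth on glucose, and feeds histone acetylation. Its signal was 2537, 2052 and 2011 in the biofilm and 1223, 1213 and 1119 in the bottom layer. All biofilm arrays lay above all bottom layer arrays, and the bottom layer arrays lay close to each other. The means of 2199.9 ± 293 and 1185 ± 57.3 give a 1.84-fold rise (log2 fold change 0.88, SE 0.15, limma adjusted p = 0.000445). No alternative tried ended the call of either synthetase gene.

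The ratio between the synthetase signals on the same array was lower on every biofilm array than on any bottom layer array. That separation, and the p-value it gives below, follow from the signals already given. ACS1 was lower and ACS2 higher on every biofilm array, so they add no further support. The ratio of ACS1 to ACS2 signal was 1.504, 1.35 and 1.46 on the biofilm arrays and 9.61, 9.40 and 14.7 on the bottom layer arrays. The mean log2 ratio of (signal + 16) was 0.52 ± 0.08 (SD, n = 3) in the biofilm, against 3.44 ± 0.36 in the bottom layer, a 7.56-fold difference that does not depend on how the arrays were scaled by a common factor. The probe sets differ in how strongly they bind, so the ratio itself is not a ratio of transcripts and only its change between the groups is read. With 3 arrays against 3, the exact two-sided permutation test gave p = 0.1, the smallest p that 20 labellings allow, and 0.267 after Benjamini-Hochberg adjustment over 8 pairs.

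**Figure D2:**
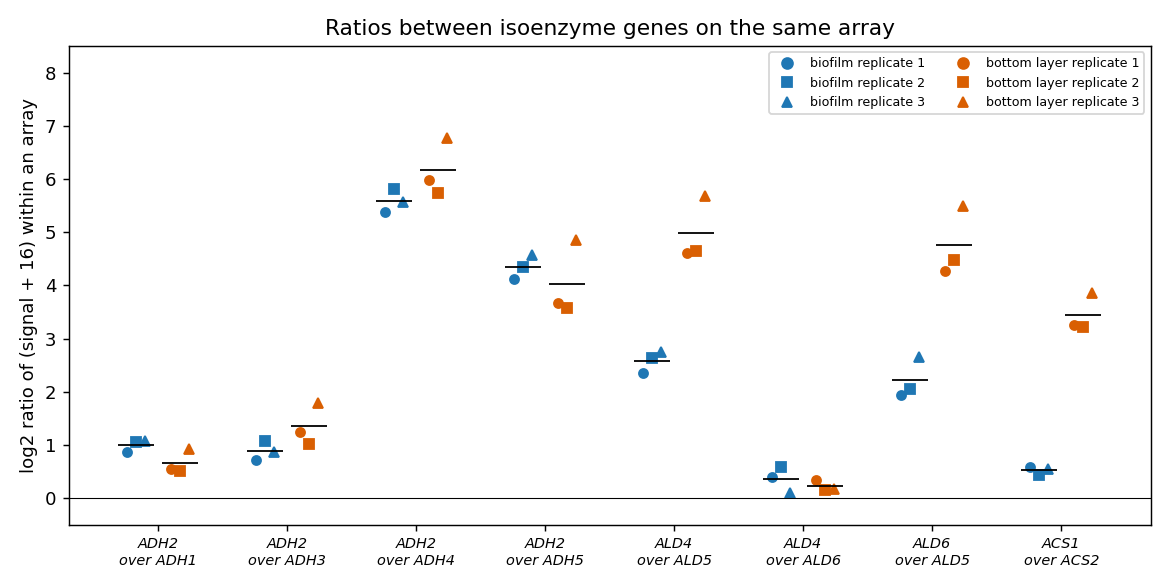
Log2 ratio of (signal + 16) between 2 genes of the same step on the same array, for 8 pairs, with biofilm arrays in blue, bottom layer arrays in orange and bars for group means. The ratios of ALD4 to ALD5, ALD6 to ALD5 and ACS1 to ACS2 are separate between groups, while the other 5 pairs overlap.

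In the middle step the rise of ALD5 stood beside lower or uncalled signals of ALD4 and ALD6. ALD5 encodes a minor mitochondrial acetaldehyde dehydrogenase activated by potassium. Its signal was 1349, 1292 and 1028 in the biofilm and 382, 308 and 254 in the bottom layer. The lowest biofilm array was far above the highest bottom layer array. From 315 ± 64 in the bottom layer the mean rose to 1223 ± 171, 3.77-fold (log2 fold change 1.91, SE 0.18, limma adjusted p = 1.13e-05). Among the 4242 genes tested it had rank 143 from the largest rise, and under all alternatives tried it remained called.

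ALD6 encodes the cytosolic, NADP-dependent enzyme, a main source of acetate and NADPH. Its signal was 5224, 5383 and 6577 in the biofilm and 7678, 7219 and 12183 in the bottom layer. The groups did not overlap, though the lowest bottom layer array was close to the highest biofilm array. The means were 5728 ± 739 and 9027 ± 2743, with log2 fold change -0.62 (SE 0.23) and limma adjusted p = 0.0332. Leaving out bottom layer replicate 3 ended the call (-0.38, adjusted p = 0.0626), as did leaving out biofilm replicate 1 (-0.56, adjusted p = 0.106) or biofilm replicate 2 (-0.58, adjusted p = 0.0993) and taking the ACT1 ratio as a covariate (-0.29, adjusted p = 0.218).

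ALD4 encodes the main mitochondrial acetaldehyde dehydrogenase, activated by potassium and repressed by glucose. Its signal was 6931, 8091 and 7030.3 in the biofilm and 9745, 8083 and 13814 in the bottom layer. Biofilm replicate 2 and bottom layer replicate 2 were almost equal, so the groups overlapped. The means of 7351 ± 643 and 10547 ± 2948 gave a log2 fold change of -0.49 (95% interval -0.98 to 0.00328, adjusted p = 0.0772 in the limma fit). Without bottom layer replicate 2 it passed, at -0.66 (adjusted p = 0.0172), and without bottom layer replicate 3 it was -0.27 (adjusted p = 0.167). With the ACT1 covariate it was -0.0912 and under quantile normalization -0.21, neither called.

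Within arrays, the signals of both major acetaldehyde dehydrogenase genes relative to that of ALD5 were lower on all biofilm arrays. The ALD4 to ALD5 signal ratio was 5.14, 6.26 and 6.84 on the biofilm arrays and 25.5, 26.3 and 54.3 on the bottom layer arrays. For ALD6 to ALD5 it was 3.87, 4.17 and 6.40 against 20.1, 23.4 and 47.9. The mean differences in log2 ratio, biofilm minus bottom layer, were -2.40 for ALD4 to ALD5 and -2.54 for ALD6 to ALD5. Neither ratio overlapped between the groups, with p = 0.1 for each (exact permutation, adjusted p = 0.267). For ALD6 to ALD5 this follows from the signals already given, as ALD6 was lower and ALD5 higher on every biofilm array. The ratio of ALD4 to ALD6 was 1.33, 1.503 and 1.07 in the biofilm and 1.27, 1.12 and 1.13 in the bottom layer. These overlapped, with a log2 difference of 0.13 and an exact permutation p = 0.6.

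In the first step no gene was called higher. ADH2 encodes the cytosolic enzyme best known for oxidising ethanol, and its gene is a classical target of glucose repression. Its signal was 11218, 15715 and 14059.9 in the biofilm and 15821, 12426 and 26110.5 in the bottom layer. The groups overlapped, and bottom layer replicate 3 was far above the other 5 arrays. The means of 13664 ± 2274 and 18119 ± 7126 gave a log2 fold change of -0.35 (95% interval -0.98 to 0.28, adjusted p = 0.305 in the limma fit). Without bottom layer replicate 3 it was -0.05, and it turned to 0.10 under quantile normalization and to 0.21 with the ACT1 covariate, so it has no settled direction.

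ADH1 encodes the main enzyme that reduces acetaldehyde to ethanol during fermentation. Its signal was 6161, 7573 and 6688 in the biofilm and 10761, 8707 and 13819 in the bottom layer. All bottom layer arrays lay above all biofilm arrays. The means of 6807 ± 713 and 11096 ± 2572 give a 1.61-fold fall (log2 fold change -0.68, SE 0.21, limma adjusted p = 0.0156). The call was lost with the ACT1 covariate (-0.34, adjusted p = 0.0543) and, narrowly, without biofilm replicate 1 (-0.61, adjusted p = 0.0678), biofilm replicate 3 (-0.67, adjusted p = 0.0525) or bottom layer replicate 1 (-0.69, adjusted p = 0.0519). ADH1 and ADH2 are close paralogs, so part of either signal may come from the other gene, which was not tested.

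ADH5 encodes a less studied isoenzyme of the same family. Its signal was 629, 759.8 and 574 in the biofilm and 1228, 1028 and 888 in the bottom layer. Here bottom layer replicate 3 was the lowest of its group, unlike for ADH1 and ADH2, and the groups did not overlap. The fall from 1048 ± 171 to 654 ± 95.4 was 1.58-fold (log2 fold change -0.66, SE 0.17, limma adjusted p = 0.00623), and no alternative tried ended the call. The change was smaller than that of ACS1.

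ADH3 encodes the mitochondrial alcohol dehydrogenase, which takes part in moving reducing equivalents across the inner membrane. Its signal was 6848, 7491 and 7739 in the biofilm and 6639, 6132 and 7516 in the bottom layer. The groups overlapped, with means of 7359 ± 460.03 and 6762 ± 700.3, a log2 fold change of 0.12 (95% interval -0.25 to 0.50) and adjusted p = 0.543 in the limma fit. Under quantile normalization it was called higher, at 0.29 (adjusted p = 0.0215), and under centring on the median of the genes tested it turned to -0.08.

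ADH4 belongs to another dehydrogenase family and is known to rise when zinc is short. Its signal was 254, 266 and 280.1 in the biofilm and 234, 216 and 224 in the bottom layer. All biofilm arrays lay above all bottom layer arrays, but by little, and the means of 267 ± 13.0 and 225 ± 9.31 gave a log2 fold change of 0.23 (95% interval -0.12 to 0.58, adjusted p = 0.223 in the limma fit). A further probe set of ADH4 and one of ALD6 gave mean signals of 9.91 to 16.8 in the groups. These were below background on every array, except that ADH4 exceeded it on 1, so they give no usable measure of either gene.

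**Figure D3:**
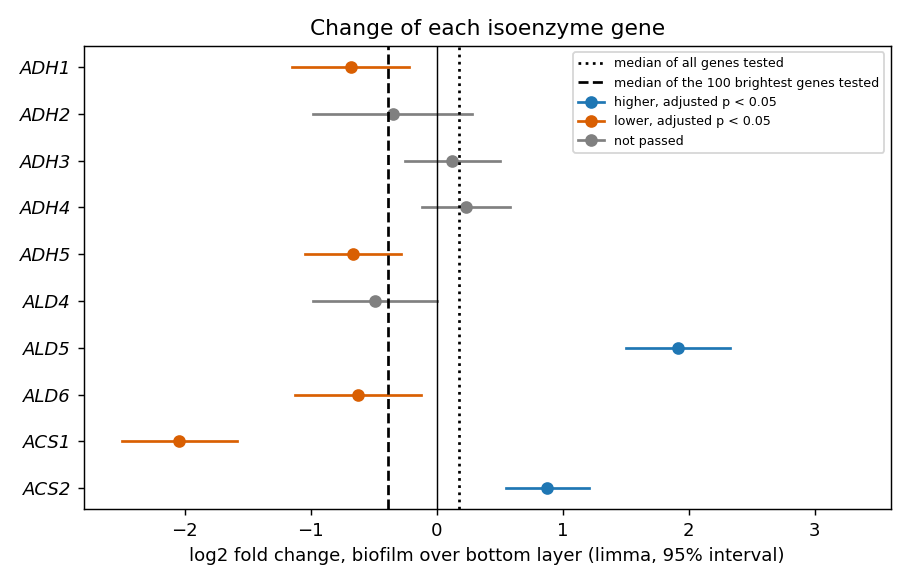
Log2 fold change, biofilm over bottom layer, of each gene with its 95% interval from the limma fit; blue marks genes called higher, orange genes called lower and grey genes that did not pass. The dotted line is the median of all genes tested, 0.17, and the dashed line the median of the 100 brightest genes tested, -0.38; the intervals of ADH1, ADH2, ALD4, ALD6 and ADH5 include the dashed line, and those of ALD5, ACS1 and ACS2 lie apart from both lines.

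The ratios of ADH2 to the other alcohol dehydrogenase genes overlapped between the groups with all 6 arrays in the signals as deposited. The ADH2 to ADH1 signal ratio was 1.82, 2.08 and 2.10 in the biofilm and 1.47, 1.43 and 1.89 in the bottom layer, and bottom layer replicate 3 overlapped the biofilm. The differences in log2 ratio, biofilm minus bottom layer, were 0.33 against ADH1, -0.47 against ADH3, -0.58 against ADH4 and 0.31 against ADH5. Their exact permutation p-values were 0.2, 0.2, 0.2 and 0.5, and 0.267 to 0.571 after adjustment over the 8 pairs. These differences moved with single bottom layer arrays. Without bottom layer replicate 3 those against ADH1 and ADH5 were 0.46 and 0.72, with groups that were separate (exact permutation p = 0.1 each), and those against ADH3 and ADH4 were -0.25 and -0.28 (p = 0.3 each). Without bottom layer replicate 2 those against ADH3 and ADH4 were -0.64 and -0.79, with separate groups (exact permutation p = 0.1 each), and that against ADH5 was 0.0852 (p = 0.9). Under quantile normalization the differences were 0.56 against ADH1 and 0.81 against ADH5 (exact permutation p = 0.1 each), as against -0.19 for ADH3 and -0.0504 for ADH4.

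ADH1 and ALD6, with smaller falls, lay among the brightest genes, while ADH5, with a fall of like size, had a signal far below theirs. Of the 100 brightest genes tested, a number chosen after seeing the data and among them 5 of the 10 described here, 32 were lower and 7 higher, against 24.4% and 38.0% of all genes tested. Their median log2 fold change was -0.38. With genes ordered by mean linear signal the median was -0.49, with 39 lower and 6 higher. Over the 500 brightest genes the shift was smaller, with a median of -0.0531, 154 lower and 150 higher. On bottom layer replicate 3, 76 of these 100 genes had their highest signal of the 6 arrays. The changes of ADH1, ADH2, ALD4 and ALD6 ranged from -0.35 to -0.68, against the median of -0.38 for those 100 genes. ADH3, the other of the 5, did not share this direction. Its change was 0.12, not called, with its highest signal on biofilm replicate 3. ADH1, ADH2, ALD4, ALD6 and ACS1 had their highest signal on the same array, bottom layer replicate 3. The order by brightness used the mean over all 6 arrays, that array included. What the brightness of that array contributes to ADH1 and ALD6 was not tested beyond leaving it out. Without it the log2 fold change was -0.51 for ADH1, which kept its call, and -0.38 for ALD6, which did not. ADH5, ALD5 and ACS2 had their lowest bottom layer signal on that array.

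Signal ranks inside each array, which do not depend on the scaling, were separate between the groups for all of the 10 genes except ADH2 and ADH4. The share of all genes with separate ranks was not computed, so this is not read as particular to these genes. By signal, 68.0% of all genes tested did not overlap. ADH2 was at rank 2, 2 and 6 of the 5656 genes on the biofilm arrays and 4, 5 and 5 on the bottom layer arrays. ACS1 was at rank 252, 406 and 390 in the biofilm, as against 18, 13 and 28 in the bottom layer. It was thus among the brightest 30 genes on all 3 bottom layer arrays and on no biofilm array.

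ALD5 moved the other way, to rank 922, 922 and 1132 in the biofilm from 2138, 2567 and 2566 in the bottom layer. The ranks of ACS2 were 444, 594 and 592 in the biofilm and 938, 979 and 961 in the bottom layer. For ADH3 and ALD4 the ranks did not overlap although the signals did. ADH3 was at rank 68, 82 and 67 in the biofilm and 123, 127 and 134 in the bottom layer, while ALD4 was at 60, 66 and 86 as against 54, 57 and 51. ADH1 went from rank 29, 43 and 50 in the bottom layer to 92, 81 and 100 in the biofilm. The ranks of ALD6 were 142, 162 and 104 in the biofilm and 99, 88 and 70 in the bottom layer, and those of ADH5 were 1723, 1481 and 1788 as against 934, 1136 and 1155. The ranks of ADH4 overlapped, between 2725 and 2993 in the biofilm and between 2766 and 3071 in the bottom layer.

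**Figure D4:**
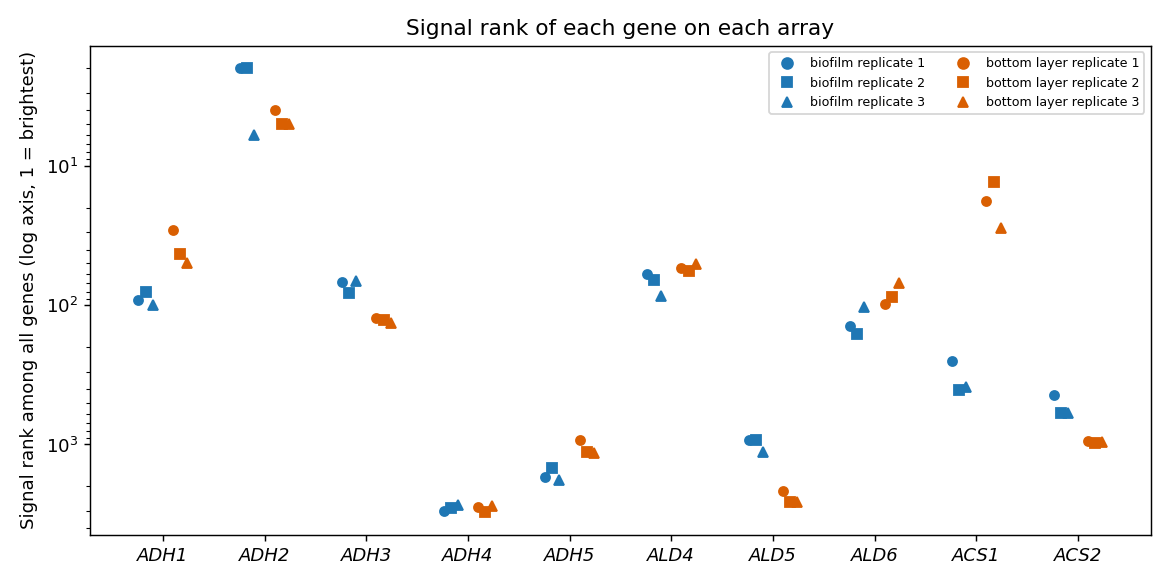
Rank of each gene's signal among the 5656 genes on each array (log axis, inverted, 1 = brightest), with biofilm arrays in blue and bottom layer arrays in orange. ADH2 stays between rank 2 and 6 on all 6 arrays, ACS1 lies at 13 to 28 in the bottom layer and 252 to 406 in the biofilm, and ALD5 at 2138 to 2567 and 922 to 1132.

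By mean signal the order of the 10 genes differed between the groups. In the biofilm it ran ADH2, ADH3, ALD4, ADH1, ALD6, ACS1, ACS2, ALD5, ADH5, ADH4. In the bottom layer it ran ADH2, ACS1, ADH1, ALD4, ALD6, ADH3, ACS2, ADH5, ALD5, ADH4. ACS1 went from place 6 to place 2, ADH3 from place 2 to place 6. In the biofilm the place of ADH3 relative to its neighbours ALD4 and ADH1 changed between arrays. In the bottom layer the spreads of ACS1, ADH1, ALD4 and ALD6 over arrays overlapped, but their order was the same on all 3 arrays. On replicate 3 ADH1 and ALD4 were almost equal there. Since probe sets differ in brightness for the same amount of RNA, this is an order of signals and not of transcript amounts.

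Several other dehydrogenases of alcohols and aldehydes changed by more than most of the 10 genes, but ADH6 (log2 fold change 0.66) and ALD2 (0.00805) did not. Of 8 such genes 7 were tested, of which 2 were higher and 4 lower, and their median log2 fold change was -1.14. Of all genes tested 62.5% were called, 38.0% higher and 24.4% lower, and the counts of this and the following short lists are to be read against these shares. The butanediol dehydrogenase gene BDH1 fell from 8237 ± 681 to 631 ± 244, 13.3-fold (limma adjusted p = 1.01e-06), and its neighbour and paralog BDH2 from 5772 ± 669 to 416 ± 182, 14.2-fold (limma adjusted p = 1.47e-06). HFD1, a fatty aldehyde dehydrogenase gene, fell 2.20-fold. SFA1, for an alcohol dehydrogenase that also clears formaldehyde, rose 2.26-fold, from 905 ± 107 to 2057 ± 68.9.

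Genes for pyruvate as the other source of acetaldehyde or acetyl-CoA moved unequally. Of 3 pyruvate decarboxylase genes 2 were tested and neither passed: PDC1 had a log2 fold change of -0.28 and PDC5 of -0.11. The limma adjusted p was 0.322 for PDC1, which passed without bottom layer replicate 2 (-0.54, adjusted p = 0.0302) and was -0.0415 without bottom layer replicate 3 (adjusted p = 0.858) and 0.16 with the ACT1 covariate. Of 8 genes for pyruvate import into mitochondria and the pyruvate dehydrogenase complex, 2 were higher and 2 lower. MPC3, for a pyruvate carrier subunit used in respiratory growth, fell from 5408 ± 816 to 1429 ± 197, 3.75-fold. PDB1 and LPD1, for subunits of the complex, rose 1.46-fold and 1.56-fold, and MPC1, for another carrier subunit, fell 1.68-fold.

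The last of these calls were not firm. Leaving out biofilm replicate 2 ended that of LPD1 (0.52 on the log2 scale, limma adjusted p = 0.0936), as did leaving out bottom layer replicate 1 (0.66, 0.0609) or 2 (0.44, 0.0730), and both it and PDB1 lost theirs under centring on the median of the genes tested. That of MPC1 was lost without biofilm replicate 2 (-0.80, limma adjusted p = 0.0538) or 3 (-0.46, 0.125) and without bottom layer replicate 1 (-0.74, 0.0830) or 2 (-0.58, 0.0862).

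Among 8 genes for the use of acetyl-CoA, 2 were higher, 1 was lower and 5 did not pass. CIT3, for a mitochondrial citrate and methylcitrate synthase, rose from 538 ± 89.6 to 1115 ± 217 (log2 fold change 1.03, limma adjusted p = 0.000719). ACC1, for the first enzyme of fatty acid synthesis, was 1.44-fold higher and ACH1, for a mitochondrial enzyme that passes coenzyme A to acetate, 1.64-fold lower. The call of ACC1 was lost on leaving out any single array except bottom layer replicate 3 (log2 fold changes 0.39 to 0.54, limma adjusted p from 0.0623 to 0.0943), and under both ways of centring. For ACH1 it was lost without biofilm replicate 1 (-0.80, limma adjusted p = 0.0560) or 2 (-0.41, 0.202) and without bottom layer replicate 1 (-0.75, 0.0905) or 3 (-0.54, 0.109), under quantile normalization (-0.48, 0.101), with the ACT1 covariate (-0.63, 0.113) and under centring on all probe sets (-0.72, 0.0571). ICL1, for isocitrate lyase of the glyoxylate cycle, had a log2 fold change of -0.53 (limma adjusted p = 0.0868), which passed without bottom layer replicate 2 (-0.73, 0.0180), under quantile normalization (-0.24, 0.0393) and with array weights (-0.42, 0.0413). Without bottom layer replicate 3 it was -0.26 (limma adjusted p = 0.208), and with the ACT1 covariate -0.0639 (0.744).

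Of the 3 mitochondrial NADH dehydrogenase genes, whose enzymes reoxidise the NADH that ethanol oxidation makes, 2 were lower in the biofilm. NDE2, for an enzyme facing the cytosol, fell 3.30-fold, and NDI1, for the one facing the matrix, fell from 394 ± 102 to 117 ± 16.8, 3.04-fold (limma adjusted p = 7.92e-05). NDE1, the other gene for an enzyme facing the cytosol, had 3130.5 ± 739.6 in the biofilm, against 2903 ± 358 in the bottom layer and did not pass (limma adjusted p = 0.717).

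Regulators known to act on these genes were called in both directions. Of 17 listed, 14 were tested, with 3 higher, 5 lower and 6 not passed (median log2 fold change -0.41). CAT8 and SIP4, which encode activators that bind the carbon source response element in genes such as ACS1, fell from 443 ± 65.8 to 185 ± 27.4 and from 464 ± 67.1 to 161 ± 53.4. The kinase gene SNF1, which is needed to relieve glucose repression, fell 2.97-fold. HAP3, for a subunit of the activator of respiratory genes, rose from 210.4 ± 12.2 to 437 ± 23.2. The limma adjusted p-values of CAT8, SIP4, SNF1 and HAP3 ran from 7.57e-05 to 0.000268. Genes for partner subunits differed from SNF1 and HAP3. SNF4, of the SNF1 kinase complex, was higher (log2 fold change 0.74, limma adjusted p = 0.00313). HAP2, of the HAP3 complex, was lower (-0.60, 0.0140), HAP4 did not pass (-0.44, 0.150) and HAP5 was not tested. The remaining called genes of this list were ADR1, which was lower (-1.31, limma adjusted p = 0.00165), and RDS2, which was higher (0.47, 0.0279). Whether the lower CAT8 and SIP4 signals bear on the lower ACS1 signal was not tested.

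Genes that respond to zinc shortage, the known setting of ADH4, also went both ways. Of 9 listed, 7 were tested, with 3 higher, 3 lower and 1 not passed. The zinc transporter genes ZRT2 and ZRC1 rose 2.66-fold and 2.21-fold, while IZH1 and IZH2, for membrane proteins tied to zinc balance, fell 2.02-fold and 1.81-fold. Their limma adjusted p-values ran from 6.02e-05 to 0.00109.

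**Figure D5:**
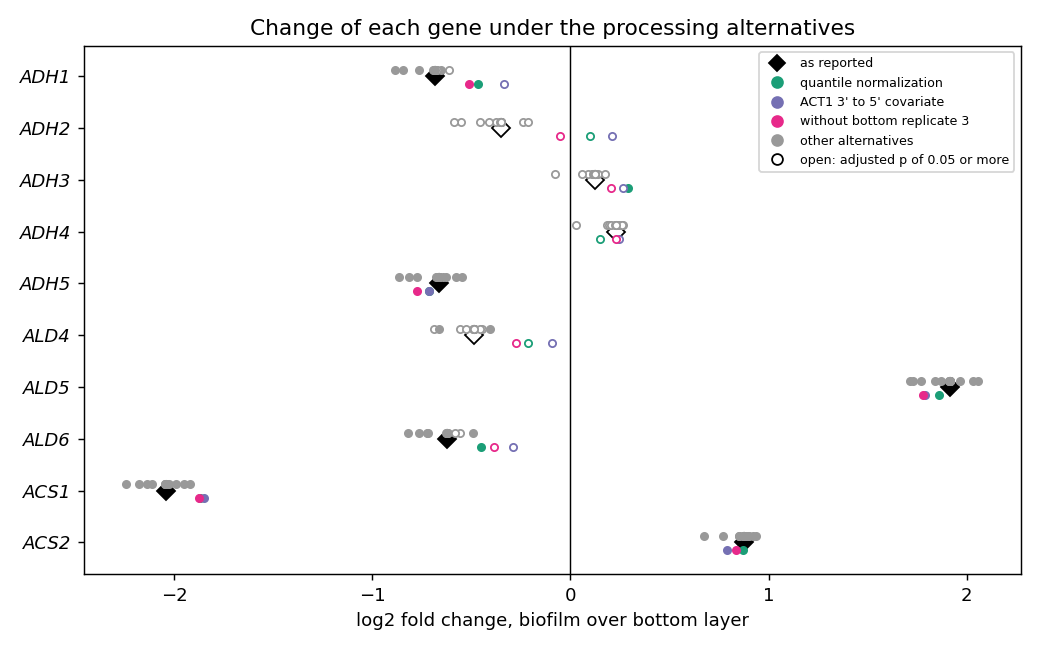
Log2 fold change, biofilm over bottom layer, of each gene as reported (diamond) and under each processing alternative (circles), filled where the adjusted p is below 0.05. ALD5, ACS1, ACS2 and ADH5 stay filled and on one side of 0, ADH2 lies on both sides of 0, and ADH1 and ALD6 hold open circles.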

How the data were processed

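Total RNA was labelled as biotin aRNA and hybridised to 6 arrays, per the labels' protocols. The authors deposited linear signal intensities for 9335 probe sets per array; the submitters' processing notes name MAS5, with version and settings not given in the sources used here. Each array's mean without its lowest and highest 2% is 500. Of these probe sets 60 are controls, 6504 pair with 1 gene, 328 with several and 2443 are not listed. Symbols came through gene identifiers from a table of assembly R64.

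Signals were taken as log2(signal + 16), which understates changes of dim genes. Each gene was read from its probe set of highest mean log2 signal, and the dimmest 25% of genes were left out. The 3 biofilm and 3 bottom layer arrays were compared in R 4.3.3 by limma 3.58.1 (trended eBayes, two-sided). P-values were adjusted by Benjamini-Hochberg over 4242 genes, with a threshold of 0.05. The fit was also run on simulated data with independent noise and few changed genes. That setting is unlike these data, so it does not check the calls given here. Isoenzyme ratios within arrays were compared by exact permutation. Background on an array was its brightest signal among 19 control probe sets taken as unspiked. All 10 genes are named, and up to 4 of each other list by smallest p. The partner subunits of SNF1 and HAP3, the other called regulators, ADH6 and ALD2 were added. The genes and lists were chosen with earlier results of these data known. Plots used Python 3.11.15 and matplotlib 3.10.9. The number of arrays limits the precision. No sequences are shown.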

Additional observations from a re-analysis of the deposited data

How the results depend on the processing

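Alternatives were other pseudocounts (1 and 64), other filters on dim genes, quantile normalization, centring on the median of the genes tested or of all probe sets, no variance trend, array weights, all probe sets, the ACT1 3' to 5' covariate and leaving out each array. Centring on all probe sets and choosing probe sets and filtering by mean linear signal were added after seeing the data. The latter was run first, and the mean log2 signal was taken instead once the counts of both had been seen; it gave 1634 higher and 1059 lower against 1613 and 1037, and no call of the 10 genes changed. Calls of ALD5, ACS1, ACS2 and ADH5 held under all of them, with log2 fold changes of 1.71 to 2.06, -2.24 to -1.85, 0.68 to 0.94 and -0.86 to -0.54. The number of genes called ran from 1832 of 2828 tested, with the dimmest 50% left out, to 3192 of 5656 without a filter. In the main setting it was 2650 of 4242. No count over all genes moved by over 1.5 times, though the filters also change how many genes are tested. Of the 10 genes, 2 to 5 were lower against 4: 2 without biofilm replicate 1 or with the ACT1 covariate, and 5 without bottom layer replicate 2 or with array weights. With the ACT1 covariate the log2 fold change of ADH1 was -0.34 and that of ALD6 -0.29, neither called, and ADH2 (0.21), PDC1 (0.16), PDC5 (0.0186) and NDE1 (-0.0548) changed sign. Quantile normalization gave ADH2 0.10 and ADH3 0.29, the latter called. Centring on the genes tested turned ADH3 (-0.0756) and NDE1 (-0.11), centring on all probe sets left ALD6 at -0.63 uncalled, and array weights gave ALD4 -0.41, called. The dim other probe sets gave -0.11 for ADH4 and -0.0359 for ALD6, and with the latter the change in the ALD4 to ALD6 ratio was -0.45. As stated above, these probe sets give no usable measure of either gene, so the sign of that ratio change is not read. Leaving out 1 array gave -0.84 to -0.51 for ADH1, -0.66 to -0.27 for ALD4, -0.76 to -0.38 for ALD6, -0.19 to 0.0163 for PDC5 and -0.0754 to 0.27 for NDE1. The causes were not tested.

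With the replicate number as a block, 1590 genes were higher and 1046 lower, and no call of the 10 genes changed. The samples share only a number: deviations of same-numbered arrays correlated at -0.01, -0.09 and 0.16 over genes, and biofilm replicate 1 correlated best with bottom layer replicate 2 (0.24). Over all genes tested the standard errors of the log2 fold changes had a median of 0.18.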
